A study of Mus musculus with 16 samples.

Results

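The enzymes that take up, store and burn glucose in fast muscle were followed here as a set of 36 genes: 2 glucose transporters, the enzymes of glycolysis from hexokinase to lactate dehydrogenase with the PFKFB enzymes that regulate phosphofructokinase, fructose bisphosphatase 2, both enzymes of the glycerol phosphate shuttle, and the proteins that make and break down glycogen. The members were found by exact gene symbol, and each matched 1 row of the 41388 genes in the count table. All 36 were measured by total RNA sequencing of mouse quadriceps, a large muscle of the thigh. They took 5.80 to 6.07% of the counts of a wild-type library.

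The mice of all 4 groups were 36 days old and labelled C57BL/6, which the methods give as C57BL6J. *Mtm1* KO mice carry a germline deletion of exon 4 of *Mtm1*, the X-linked gene of myotubularin, a lipid phosphatase whose loss causes X-linked myotubular myopathy; the labels write the genotype as mtm1 -/-. The groups were untreated wild type (WT), wild type given tamoxifen (WT + TAM), untreated knockout (*Mtm1* KO) and knockout given tamoxifen (*Mtm1* KO + TAM), with 4 libraries each. Tamoxifen, a drug that binds estrogen receptors, was mixed into the food at 40 mg/kg from day 21. The deletion is in the germline and so is not limited to muscle fibers, and whole muscle was sequenced.

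Skeletal muscle stores glucose as glycogen. During exercise phosphorylase kinase switches on glycogen phosphorylase, which releases glucose 1-phosphate, and glycolysis turns the sugar into pyruvate and lactate. Fast 2B fibers depend on this route, and they carry muscle forms of several enzymes (*Pygm*, *Pfkm*, *Aldoa*, *Pgam2*, *Eno3*) whose sister genes (*Pygb*, *Pfkl*, *Aldoc*, *Pgam1*, *Eno1*) serve other tissues and immature muscle. Fructose bisphosphatase 2 runs the phosphofructokinase step in reverse, and in muscle it allows glycogen to be made from lactate.

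The main set held 14 libraries with 25702605 to 29847222 counts each, since the study left out 2, labelled WT replicate 1 and KO replicate 12. *Mtm1* had 341 to 369 counts in the WT, 282 to 459 in the WT + TAM, 63 to 76 in the *Mtm1* KO and 53 to 97 in the *Mtm1* KO + TAM libraries of that set, and the library labelled WT replicate 1 had 74, which goes against its label. WT + TAM replicates 7 and 8 were the most alike of 120 pairs of libraries, with a median chi-square per gene of 1.47 where sampling alone gives 0.455 and the next pair had 3.36. They differed by more than counting noise, which does not show that they came from separate animals. The labels list them as 2 samples and they were kept so, and counts are also given with the 2 summed. The top 10 genes by count held 23.6 to 27.6% of a WT library and 16.9 to 18.8% of an *Mtm1* KO library. Scaling by library size alone, in place of TMM normalization, raised the median change over all genes tested (log2) from 0.02 to 0.33 for *Mtm1* KO against WT and from -0.01 to 0.27 for *Mtm1* KO + TAM against WT + TAM. All changes below are on the TMM scale, relative to that median.

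Promoters are shown here for *Fbp2*, which moved with tamoxifen, and for *Pygm*, *Phka1* and *Ppp1r3a*, glycogen genes that were lower in untreated *Mtm1* KO. *Phkg1* and *Gpd2*, which were also lower there, are not shown. The stretches are RefSeq sequence of the GRCm38.p6 build, 5′ to 3′ on the gene's strand, and end at the base before the gene as GENCODE vM21 annotates it. They lie at chr13:62858423-62858650 for *Fbp2* (minus strand), chr19:6384158-6384398 for *Pygm* (plus strand), chrX:102644247-102644496 for *Phka1* (minus strand) and chr6:14755275-14755524 for *Ppp1r3a* (minus strand). Capitals mark the E-box CAGCTG, the ACGTG core of hypoxia response elements, GGTCA, a core of estrogen response elements, and the MEF2 consensus.
Fbp2: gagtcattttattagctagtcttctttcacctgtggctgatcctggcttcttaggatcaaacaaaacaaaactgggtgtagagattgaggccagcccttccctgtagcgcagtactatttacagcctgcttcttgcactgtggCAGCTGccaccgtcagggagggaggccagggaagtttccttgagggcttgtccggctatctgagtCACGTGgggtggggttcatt
Pygm: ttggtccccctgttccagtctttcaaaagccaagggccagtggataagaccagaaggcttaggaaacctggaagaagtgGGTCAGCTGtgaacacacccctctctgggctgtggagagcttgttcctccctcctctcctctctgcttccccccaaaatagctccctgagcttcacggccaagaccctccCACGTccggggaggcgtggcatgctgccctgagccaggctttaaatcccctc
Phka1: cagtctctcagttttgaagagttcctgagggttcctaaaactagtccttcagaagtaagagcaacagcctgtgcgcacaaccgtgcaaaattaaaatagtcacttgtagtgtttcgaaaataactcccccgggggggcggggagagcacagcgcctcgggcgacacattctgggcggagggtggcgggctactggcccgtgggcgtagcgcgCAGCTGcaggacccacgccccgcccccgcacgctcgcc
Ppp1r3a: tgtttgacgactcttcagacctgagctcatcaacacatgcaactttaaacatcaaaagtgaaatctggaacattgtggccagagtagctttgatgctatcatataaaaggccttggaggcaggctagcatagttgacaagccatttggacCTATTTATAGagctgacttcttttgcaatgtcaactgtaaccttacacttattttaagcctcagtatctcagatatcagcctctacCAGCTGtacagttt

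The reference table held promoters for 34 of the 36 members, 51 in all because several genes have more than 1 start. In the 250 bases before the start, searched on both strands, CAGCTG was found in 11 of the members' promoters (21.6%) and 4271 of all 32851. Each promoter shown above holds a CAGCTG, and those of *Phkg1* and *Gpd2*, not shown, hold none. ACGTG was found in 35.3% against 16.6%, GGTCA in 41.2% against 35.2%, the MEF2 consensus in 5.88% against 2.92% and TCAGGTTTC, the MEF3 core, in 0% against 0.387%. A GGTCA and a CAGCTG overlap in the *Pygm* promoter, 171 and 168 bases before the RefSeq start, which lies inside the gene as GENCODE annotates it, so that a second CAGCTG, 8 bases before that start, falls past the end of the printed stretch, and each ACGTG of the *Fbp2* promoter overlaps the other on the opposite strand. No GGTCA stands in the *Fbp2* window. These are matches of letters, and no test was made of them.

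The first question was how the genes of sugar metabolism differ between *Mtm1* KO and wild-type muscle. Glycogen breakdown held 3 of the 5 members that were lower in untreated muscle. Muscle phosphorylase and 2 subunits of phosphorylase kinase stood at 0.412 to 0.468 times the wild-type level, with and without tamoxifen. Of the later steps of glycolysis, *Eno3*, *Pkm* and *Ldha* stood at 0.582 to 0.660 times. None of these passed in untreated muscle, and *Ldha* did not pass with tamoxifen either. *Pgk1* and *Pgam2* stood at 0.545 to 0.699 times and passed in neither pair. The enzymes that build glycogen, *Gys1*, *Gyg*, *Ugp2* and *Gbe1*, did not pass the test in either direction. *Ppp1r3a*, a phosphatase subunit that favours glycogen synthesis, was among the 5 lower members in untreated muscle. *Hk1* and *Slc2a1*, forms that are not the main ones of mature muscle, were higher in the tamoxifen-treated pair.

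Of the 36 members, 5 were lower and 0 higher in *Mtm1* KO than in WT at an adjusted p of 0.01 (edgeR's quasi-likelihood test, Benjamini-Hochberg over 14740 genes). Over all genes tested, 1.69% were lower and 1.91% higher. The median log2 fold change was -0.39 for the members and 0.02 for all genes. In *Mtm1* KO + TAM against WT + TAM, which shares no library with the first comparison, 9 members were lower and 2 higher, against 3.30% and 3.42% of all genes, and the median was -0.54 for the members and -0.01 for all genes. In both comparisons 4 members were lower, *Gpd2*, *Pygm*, *Phka1* and *Phkg1*, where 1.11% of the 14278 genes tested in both were. The sign of the change was the same in the 2 comparisons for 30 members, or 83.3%, and for 77.4% of all genes.

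**Figure D1:**
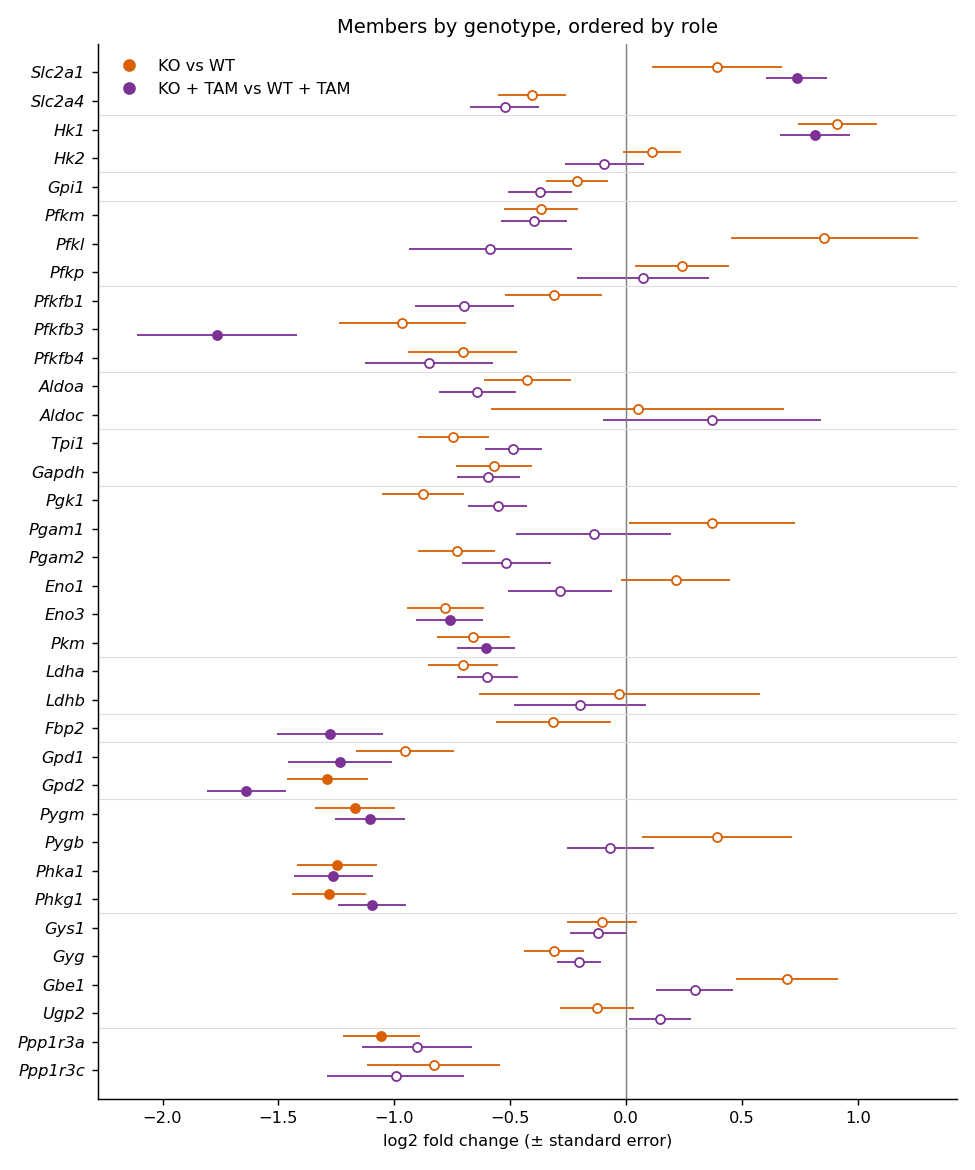
Log2 fold change with its standard error (horizontal axis) of the 36 members in role order, for *Mtm1* KO against WT (orange) and *Mtm1* KO + TAM against WT + TAM (purple), with filled points at an adjusted p of at most 0.01. The glycogen breakdown genes *Pygm*, *Phka1* and *Phkg1* and the shuttle gene *Gpd2* are filled in both comparisons, between -1.64 and -1.10, while *Gys1* and *Ugp2* lie near 0.

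At an adjusted p of 0.05 the counts were 14 members against 12.8% of all genes in the untreated pair and 20 members against 17.0% in the treated pair. The values of the groups did not overlap for 22 members in the untreated pair, 20 of them lower, where 36.4% of all genes did not. In the treated pair this held for 20 members, 18 of them lower, where 22.5% of all genes did not overlap. Calls in the untreated pair depended on single libraries: with WT replicate 4 left out 2 members passed, with KO replicate 11 left out 3 did, and 0 did with KO replicate 10 left out, while the calls over all genes went from 531 to 194, 182 and 211. In the treated pair 4 passed with KO + TAM replicate 15 left out, 5 with 14 left out and 7 with 13 left out, and of the WT + TAM replicates 7 passed with 5 left out, 7 with 7 left out and 6 with 8 left out, while the calls over all genes went from 979 to between 424 and 921. With all 16 libraries 2 members passed in the untreated pair, *Pygm* and *Phkg1*. With WT + TAM replicates 7 and 8 summed as 1 library 7 passed in the treated pair, where *Slc2a1*, *Pfkfb3*, *Eno3* and *Pkm* lost the call. The 4 members called in both comparisons each lost the call of the untreated pair with KO replicate 10 left out, *Pygm* and *Phka1* also with KO replicate 9 or WT replicate 4 left out, *Pygm* with WT replicate 2 left out and *Gpd2* with KO replicate 11 left out. The same 4 passed in the treated pair under all 19 alternatives tried.

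*Pygm*, muscle glycogen phosphorylase (ENSMUSG00000032648, chromosome 19 from 6384399 to 6398459, GRCm38), had 6744, 7834 and 6320 normalized CPM (counts scaled to a common library total) in the 3 WT libraries, 6427, 7382, 6302 and 5963 in WT + TAM, 2765, 2898 and 3472 in *Mtm1* KO and 3505, 2987, 2423 and 3176 in *Mtm1* KO + TAM. Every knockout library was below every wild-type library. The log2 fold change was -1.17 ± 0.17 (SE, adjusted p = 0.00438, edgeR) without tamoxifen and -1.11 ± 0.15 (adjusted p = 0.000936, edgeR) with it. *Pygb*, the brain phosphorylase, had 11.4 to 31.3 CPM in WT and 21.3 to 26.8 in *Mtm1* KO, and its log2 fold change was 0.39 ± 0.32 (adjusted p = 0.453, edgeR).

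*Phka1* encodes the regulatory alpha subunit of phosphorylase kinase in muscle and lies on the X chromosome, as *Mtm1* does. Its CPM was 702, 907 and 706 in WT, 679, 994, 618 and 576 in WT + TAM, 299.6, 276 and 384 in *Mtm1* KO and 291, 285, 280.0 and 336 in *Mtm1* KO + TAM. The 2 genotypes did not overlap. *Phkg1*, the catalytic gamma subunit, had 647, 885 and 695 CPM in WT, 667, 711, 649 and 645 in WT + TAM, 283, 287 and 332 in *Mtm1* KO and 350.0, 308, 228 and 362 in *Mtm1* KO + TAM. The log2 fold changes were -1.25 ± 0.17 for *Phka1* (adjusted p = 0.00344, edgeR) and -1.28 ± 0.16 for *Phkg1* (adjusted p = 0.00203, edgeR) without tamoxifen. With it they were -1.26 ± 0.17 and -1.10 ± 0.15 (adjusted p = 0.000881 and 0.000865, edgeR).

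**Figure D2:**
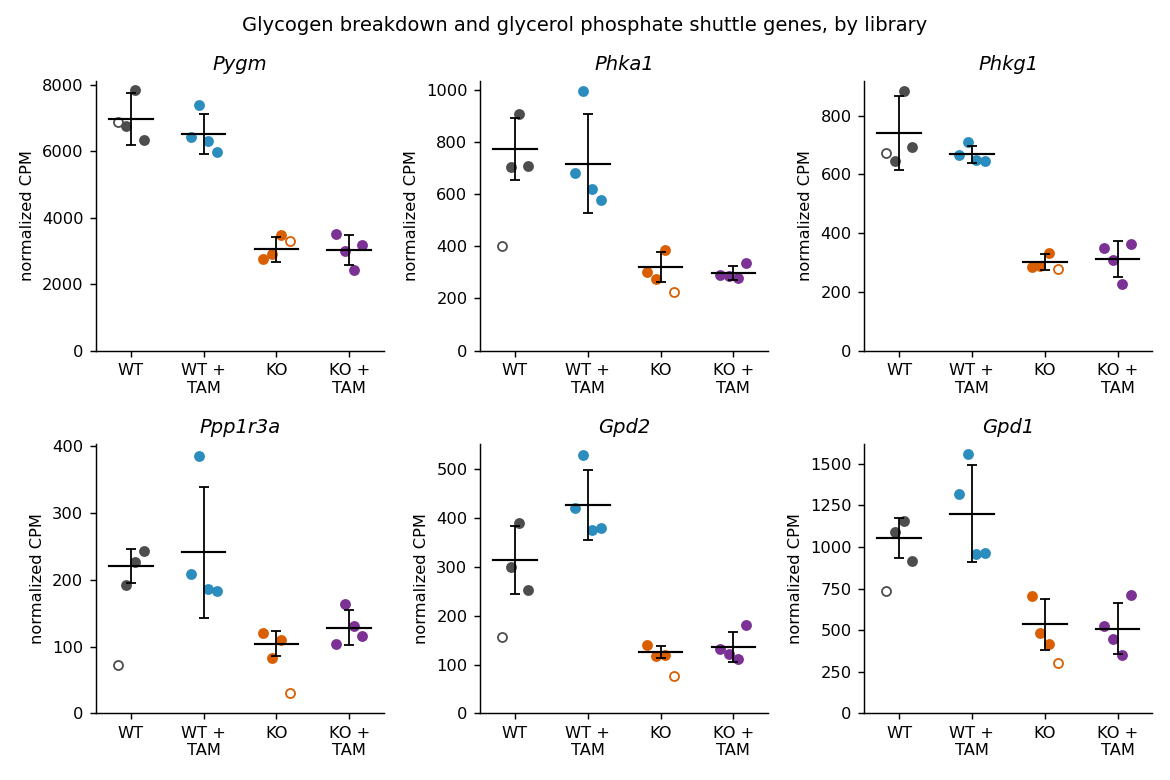
Normalized CPM (vertical axis, from 0) of 6 genes in each library of the 4 groups, with the mean and SD of the main set as bars and the 2 libraries left out of it as open points. In each of the 6 panels all filled knockout points lie below all filled wild-type points.

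The targeting subunits of protein phosphatase 1, which bring the enzyme to glycogen and favour its synthesis, were *Ppp1r3a* and *Ppp1r3c*. *Ppp1r3a* had 192, 227 and 242 CPM in WT and 120, 83.3 and 110 in *Mtm1* KO, a log2 fold change of -1.06 ± 0.17 (adjusted p = 0.00553, edgeR). With tamoxifen it had 208, 386, 186 and 183 CPM in WT and 104, 164, 130 and 115 in *Mtm1* KO, at -0.90 ± 0.24 (adjusted p = 0.025, edgeR), and its call in the untreated pair was lost without any 1 of WT replicates 2, 3 and 4 and KO replicates 10 and 11. *Ppp1r3c* overlapped between the genotypes, with -0.83 ± 0.29 and -0.99 ± 0.29.

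The 4 genes that build glycogen did not pass the test in either comparison. *Gys1*, muscle glycogen synthase, had 339 to 416 CPM in WT and 300.1 to 389 in *Mtm1* KO, at -0.10 ± 0.15 on the log2 scale (adjusted p = 0.682, edgeR). *Gyg*, the glycogenin that primes the chain, was at -0.31 ± 0.13, and *Ugp2*, which makes UDP-glucose, at -0.12 ± 0.16. The *Gyg* groups did not overlap in normalized CPM. In RPKM, which is scaled by library total, they did, with 111 to 119 in WT and 102 to 128 in *Mtm1* KO. *Gbe1*, the branching enzyme, had 32.9 to 58.9 CPM in WT and 68.0 to 92.2 in *Mtm1* KO, so the groups did not overlap, and its log2 fold change was 0.69 ± 0.22 (adjusted p = 0.0691, edgeR). With tamoxifen the *Gbe1* groups overlapped, at 0.30 ± 0.17.

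The glycerol phosphate shuttle, which hands electrons from glycolysis to mitochondria, needs a cytosolic enzyme (*Gpd1*) and a mitochondrial enzyme (*Gpd2*). *Gpd2* had 299.9, 389 and 253 CPM in WT, 420, 529, 374 and 380 in WT + TAM, 141, 118 and 119 in *Mtm1* KO and 131, 123, 112 and 181 in *Mtm1* KO + TAM. The genotypes did not overlap, and the knockout stood at 0.409 times WT without and 0.321 times with tamoxifen (log2 -1.29 ± 0.18 and -1.64 ± 0.17, adjusted p = 0.00315 and 0.000222, edgeR). *Gpd1* had 1089, 1155 and 919 CPM in WT against 708, 482 and 414 in *Mtm1* KO, at -0.95 ± 0.21 (adjusted p = 0.0212, edgeR). With tamoxifen it had 1318, 1558, 961 and 965 CPM in WT against 527, 445, 353 and 710 in *Mtm1* KO, at -1.23 ± 0.23 (adjusted p = 0.00429, edgeR), a call lost without WT + TAM replicate 6 or any 1 of KO + TAM replicates 13, 14 and 15.

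Glucose enters fibers through transporters and is trapped by hexokinase. *Slc2a4* (GLUT4, the insulin-responsive transporter) had 407 to 459 CPM in WT and 285 to 378 in *Mtm1* KO, without overlap. In RPKM the untreated groups of *Slc2a4* overlapped, with 100.2 to 123 in WT and 91.2 to 127 in *Mtm1* KO. Its log2 fold change was -0.40 ± 0.15 (adjusted p = 0.1, edgeR), and -0.52 ± 0.15 with tamoxifen. *Slc2a1* (GLUT1, the basal transporter) had 5.36, 6.18 and 10.97 CPM in WT and 7.86, 9.46 and 11.7 in *Mtm1* KO, which overlap. With tamoxifen it had 6.42, 7.68, 7.54 and 7.11 in WT and 12.1, 10.5, 12.1 and 13.1 in *Mtm1* KO, at 0.74 ± 0.13 (adjusted p = 0.00412, edgeR), a call lost without any 1 of WT + TAM replicates 5, 7 and 8 and KO + TAM replicates 13, 15 and 16.

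*Hk1*, the hexokinase of most tissues, had 19.8, 14.6 and 13.4 CPM in WT, 17.4, 13.8, 21.7 and 19.7 in WT + TAM, 27.2, 27.9 and 33.4 in *Mtm1* KO and 29.4, 37.6, 31.2 and 29.4 in *Mtm1* KO + TAM. All knockout libraries of the main set were above all wild-type libraries. The knockout was at 1.88 times WT (log2 0.91 ± 0.17, adjusted p = 0.0111, edgeR, just short of the threshold) and 1.76 times with tamoxifen (0.82 ± 0.15, adjusted p = 0.00456, edgeR, lost without any 1 of WT + TAM replicates 5 and 8 and KO + TAM replicates 14 and 15). *Hk2*, the insulin-responsive muscle hexokinase, was at 0.11 ± 0.13 and -0.09 ± 0.17.

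The committed step of glycolysis is phosphofructokinase, set by the PFKFB enzymes through fructose 2,6-bisphosphate. *Pfkm*, the muscle subunit, stood at -0.37 ± 0.16 and -0.40 ± 0.14 on the log2 scale and did not pass (adjusted p = 0.157 and 0.0794, edgeR). Its groups did not overlap in normalized CPM in either pair, but in RPKM they overlapped in both. Scaled by library size alone, *Pfkm* was at -0.06 in the untreated pair and -0.12 in the treated pair. *Pfkfb3* had 147, 286 and 173 CPM in WT, 125, 109, 320.4 and 338 in WT + TAM, 129, 101 and 75.1 in *Mtm1* KO and 52.7, 68.6, 59.6 and 81.1 in *Mtm1* KO + TAM. Its log2 fold change was -0.97 ± 0.27 (adjusted p = 0.0488, edgeR) without and -1.76 ± 0.35 (adjusted p = 0.00611, edgeR) with tamoxifen. The call was lost without WT + TAM replicate 7, without WT + TAM replicate 8 or without any 1 of the 4 KO + TAM libraries. It was also lost with WT + TAM replicates 7 and 8, the most alike pair, summed as 1 library (adjusted p = 0.0167, edgeR). Those replicates held the values of 320.4 and 338 CPM. *Pfkfb4* was at -0.71 ± 0.23 and -0.85 ± 0.28, *Pfkfb1* at -0.31 ± 0.21 and -0.70 ± 0.21, and neither passed. *Pfkl* and *Pfkp*, the liver and platelet subunits, did not pass either.

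The abundant enzymes between hexose phosphates and lactate were all on the same side on the TMM scale. In *Mtm1* KO against WT the log2 fold change was -0.21 ± 0.13 for *Gpi1* (glucose 6-phosphate isomerase), -0.43 ± 0.19 for *Aldoa* (aldolase), -0.74 ± 0.15 for *Tpi1* (triose phosphate isomerase), -0.57 ± 0.16 for *Gapdh*, -0.88 ± 0.18 for *Pgk1* (phosphoglycerate kinase), -0.73 ± 0.17 for *Pgam2* (phosphoglycerate mutase), -0.78 ± 0.17 for *Eno3* (enolase), -0.66 ± 0.16 for *Pkm* (pyruvate kinase) and -0.70 ± 0.15 for *Ldha* (lactate dehydrogenase). The normalized CPM of the 2 groups did not overlap for any of these genes, where 36.4% of all genes did not overlap. In RPKM, which is scaled by library total, the groups overlapped for *Gpi1* and *Aldoa*. None of these genes passed the threshold, with adjusted p from 0.0154 for *Pgk1* to 0.321 for *Gpi1* (edgeR). With tamoxifen *Eno3* (-0.76 ± 0.14, adjusted p = 0.00529) and *Pkm* (-0.60 ± 0.12, adjusted p = 0.00756) passed in edgeR.

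*Eno3* had 7028, 8505 and 6869 CPM in WT, 8502, 7908, 7786 and 7547 in WT + TAM, 4091, 4095 and 4643 in *Mtm1* KO and 5475, 4227, 3980.2 and 5013 in *Mtm1* KO + TAM. The genotypes did not overlap. Its call was lost without any 1 of the 4 WT + TAM libraries and of KO + TAM replicates 14 and 15, and that of *Pkm* without any 1 of the 8 treated libraries and with scaling by library size. Scaling shifted all members alike, so that small changes came close to 0 or crossed it. With library size alone *Gpi1* was at 0.10, *Aldoa* at -0.11, *Gapdh* at -0.26, *Pkm* at -0.35 and *Eno3* at -0.46 in the untreated pair. There *Pygm* was at -0.86 and *Gpd2* at -0.97. Of the 26 members below 0 with TMM in that pair, 5 were above 0 with library size alone, and of 30 in the treated pair 6 were.

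**Figure D3:**
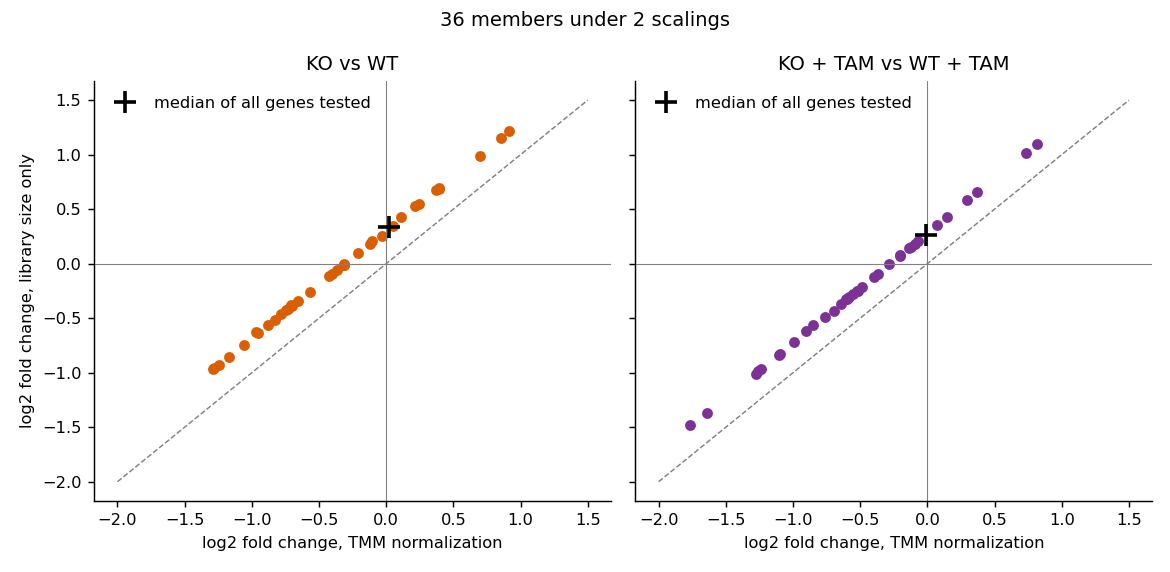
Log2 fold change of the 36 members with TMM normalization (horizontal axis) and with library size alone (vertical axis), in *Mtm1* KO against WT (left) and *Mtm1* KO + TAM against WT + TAM (right), with the line of equality dashed and a cross at the median of all genes. The points lie above the dashed line by about as much as the cross does, 0.33 on the vertical axis at left and 0.27 at right.

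*Hk1* aside, the sister forms overlapped between the genotypes without tamoxifen. *Aldoc*, the brain aldolase, had 4 to 28 counts per library in the main set. *Pgam1* (0.37 ± 0.36), *Eno1* (0.21 ± 0.24) and *Ldhb*, the heart lactate dehydrogenase (-0.03 ± 0.61), overlapped between *Mtm1* KO and WT, and *Ldhb* spread from 18.7 to 138 CPM within WT. Counts could be split with near copies: 53.9% of the 50-base stretches of *Pgk1*, 36.2% of *Pgam1*, 26.0% of *Eno1*, 25.8% of *Pkm*, 25.1% of *Gapdh* and 21.0% of *Ldhb* also occur in another annotated gene. For the genes called in both comparisons this share was 0.405% in *Pygm*, 0% in *Phka1*, 5.92% in *Gpd2* and 11.1% in *Phkg1*, with *Sumf2* the gene that shared most, and it was 0% in *Fbp2*.

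A plain ratio within 1 library does not depend on scaling between libraries, so the muscle form was set against its sister forms in 8 enzyme families. The log2 ratio used RPKM + 0.1, and the added 0.1 brings scaling back in where a form is near 0. This applies to *Aldoc*, with a mean RPKM of 0.12 in WT and 0.153 in *Mtm1* KO. In WT the muscle forms dominated: mean RPKM was 1971 ± 132 (SD, n = 3) for *Pygm* and 3.69 ± 2.23 for *Pygb*, and 3907 ± 261 for *Eno3* and 28.7 ± 5.85 for *Eno1*. The ratio was lower in *Mtm1* KO for 4 of 8 families in an exact permutation test of genotype within treatment (two-sided, adjusted over 8 families, threshold 0.05). The smallest two-sided p this design allows is 0.00143, the p of the hexokinases and of the glycogen phosphorylases.

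The *Pygm* to *Pygb* ratio on the log2 scale was 8.31, 9.93 and 9.30 in WT, 8.50, 8.88, 9.34 and 9.13 in WT + TAM, 7.29, 7.32 and 7.90 in *Mtm1* KO and 8.02, 7.94, 7.65 and 7.89 in *Mtm1* KO + TAM. The genotypes did not overlap, and the mean difference was -1.38 (adjusted p = 0.00571, exact permutation test). The *Slc2a4* to *Slc2a1* ratio differed by -1.02 (adjusted p = 0.00762, exact permutation test), *Hk2* to *Hk1* by -0.83 (adjusted p = 0.00571, exact permutation test) and *Eno3* to *Eno1* by -0.75 (adjusted p = 0.0171, exact permutation test; 0.0571 without WT replicate 3 and 0.0571 without WT replicate 4). The mean difference was -0.58 for *Aldoa* to *Aldoc* (adjusted p = 0.0709, or 0.0143 without WT replicate 2, exact permutation test). It was -0.76 for *Pgam2* to *Pgam1*, -0.53 for *Pfkm* to *Pfkl* and *Pfkp* and -0.69 for *Ldha* to *Ldhb*, and none of these passed in the main test. With RPKM + 1 the *Aldoa* to *Aldoc* difference was -0.31 and passed (adjusted p = 0.0183, exact permutation test). The *Pfkm* ratio differed by -1.08 in the untreated pair and by 0.02 in the treated pair. With the 2 libraries that the study left out, 4 families passed as well. No family passed for tamoxifen, where the lowest adjusted p was 0.869 (exact permutation test).

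**Figure D4:**
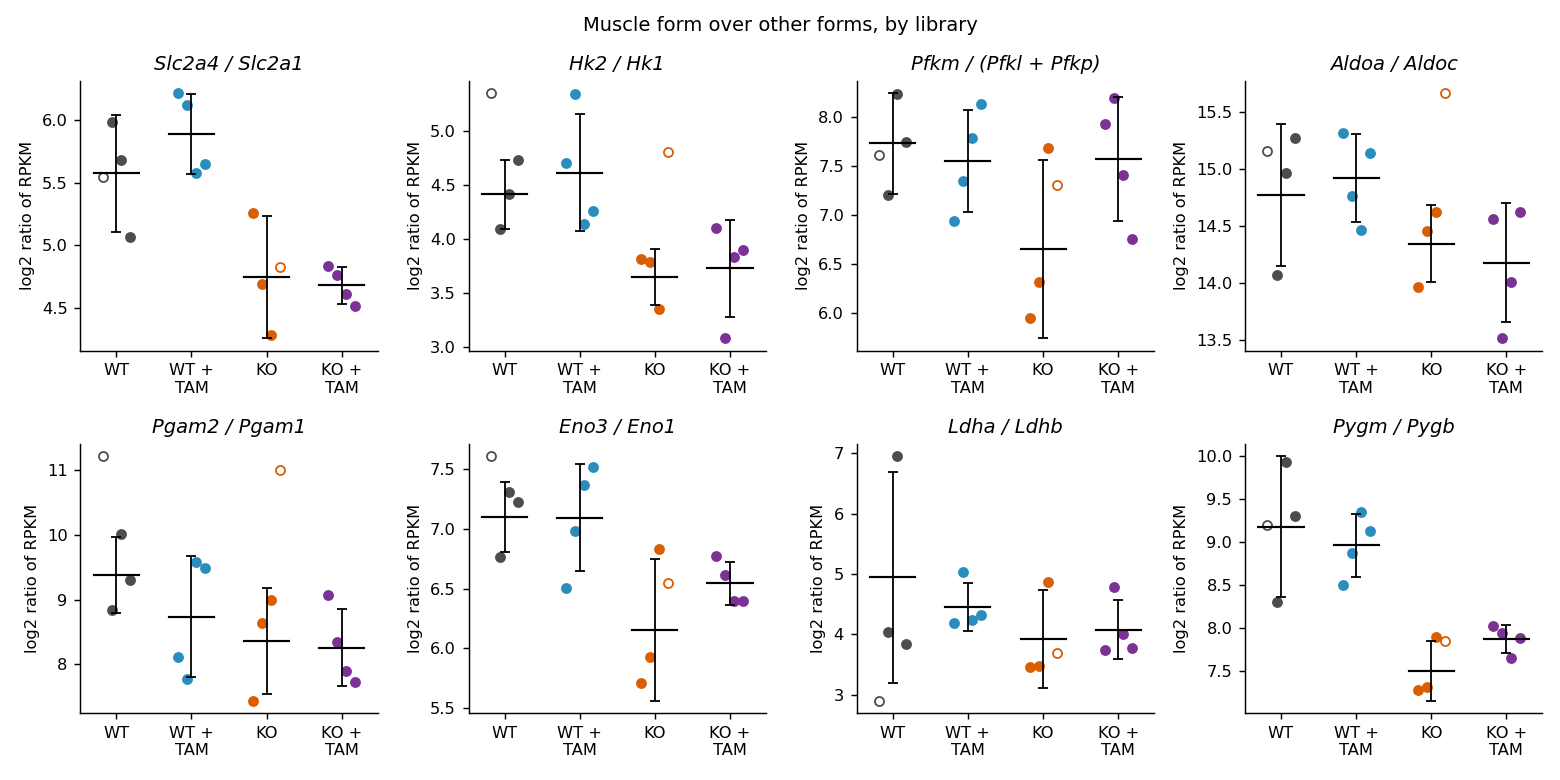
Log2 ratio of RPKM + 0.1 of the muscle form to its sister forms (vertical axis, not from 0) in each library of the 4 groups, with mean and SD of the main set and open points for the 2 libraries left out. For *Pygm* to *Pygb* the filled knockout points, 7.29 to 8.02, lie below the filled wild-type points, 8.31 to 9.93, and for *Ldha* to *Ldhb* the groups overlap.

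The second question was how these genes differ between mice given tamoxifen and untreated mice. At the dose used here, the paper reports lower body weight in treated mice of both genotypes. It relates this loss to earlier reports of reduced food intake on tamoxifen. The part of body weight and feeding in the values below was not tested. *Fbp2* stood apart from the other members. In wild-type muscle on tamoxifen it was at 4.90 times the untreated level, and in *Mtm1* KO muscle at 2.53 times, where the test across all genes did not pass. No other member passed for tamoxifen in either genotype, and none of the 5 members that were lower in *Mtm1* KO passed on tamoxifen there: *Pygm* was at 0.985 times, *Phka1* at 0.924, *Phkg1* at 1.03, *Gpd2* at 1.07 and *Ppp1r3a* at 1.22 times untreated *Mtm1* KO, with adjusted p from 0.800 to 0.995 (edgeR).

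*Fbp2* (ENSMUSG00000021456, minus strand of chromosome 13 from 62836877 to 62858422, GRCm38), whose promoter is shown above, had 29.6, 36.8 and 40.2 CPM in WT and 231, 140, 169 and 158 in WT + TAM. In *Mtm1* KO it had 23.5, 20.1 and 40.9 and in *Mtm1* KO + TAM 104, 51.0, 55.4 and 76.2. Every treated library was above every untreated library of its genotype, and above every untreated library of the other. Every *Mtm1* KO + TAM library was below every WT + TAM library. The libraries left out of the main set, labelled WT replicate 1 and KO replicate 12, had 38.3 and 27.8 CPM.

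The log2 fold change of *Fbp2* was 2.29 ± 0.19 in WT (adjusted p = 0.00212, edgeR; 0.0127 without WT replicate 4). It was 1.34 ± 0.29 in *Mtm1* KO (unadjusted p = 0.000766, adjusted p = 0.187, edgeR), with adjusted p from 0.000995 in DESeq2 to 0.432 without KO replicate 10 over 17 alternatives. Averaged over the genotypes it was 1.82 ± 0.20 (adjusted p = 0.00025, edgeR) and passed under each of 24 alternatives. The difference between the genotypes, tested as an interaction, was -0.94 ± 0.38 (unadjusted p = 0.0239, adjusted p = 1.00, edgeR), so a weaker rise in *Mtm1* KO was not shown. Between the treated groups, *Mtm1* KO + TAM was at 0.412 times WT + TAM (log2 -1.28 ± 0.23, adjusted p = 0.00392, edgeR; 0.0121 with KO + TAM replicate 14 left out and 0.0168 with KO + TAM replicate 15 left out), and between the untreated groups the difference was -0.31 ± 0.25 (adjusted p = 0.437, edgeR).

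**Figure D5:**
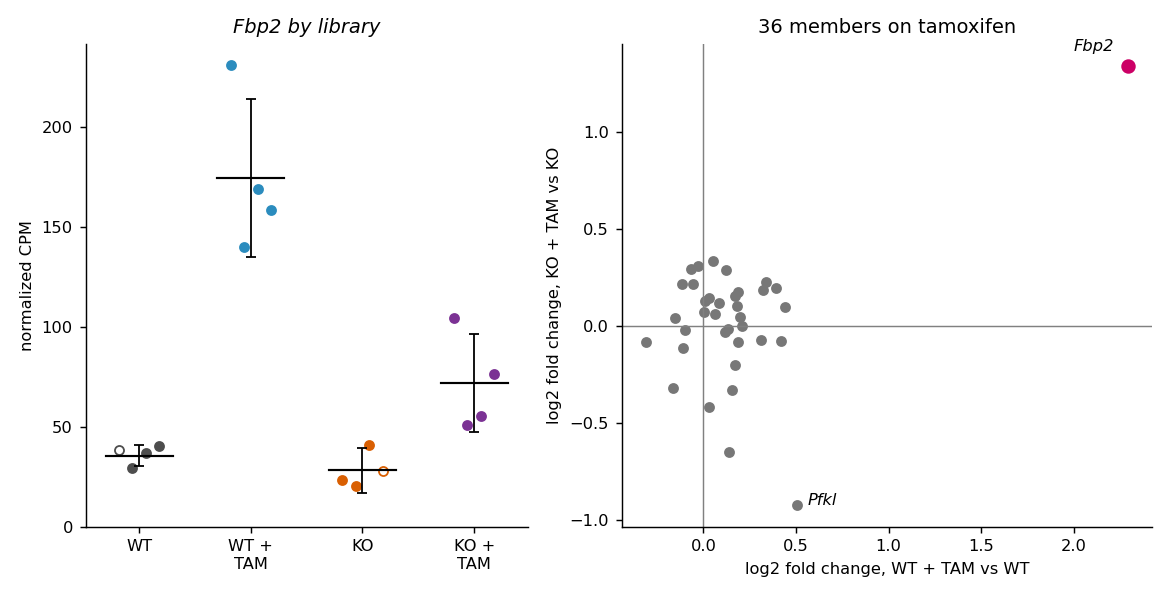
Left, normalized CPM of *Fbp2* (vertical axis, from 0) in each library, with mean and SD of the main set and open points for the 2 libraries left out. Right, log2 fold change on tamoxifen of the 36 members in wild type (horizontal axis) and in *Mtm1* KO (vertical axis), where *Fbp2*, at 2.29 and 1.34, lies away from the rest and *Pfkl*, at 0.51 and -0.92, is the lowest.

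In WT + TAM against WT, 1 member was higher, where 0.0688% of 14544 genes were, and 4 members did not overlap between the groups, where 11.5% of genes did not: *Fbp2*, *Hk2* (0.39 ± 0.16) and *Aldoa* (0.21 ± 0.15) were above and *Pgam2* (-0.31 ± 0.15) below. In *Mtm1* KO + TAM against *Mtm1* KO, 0 of 36 members passed in edgeR, as did 0% of 15062 genes, with 4 members and 1137 genes at an unadjusted p of 0.05, and 1 member, *Fbp2*, among 72 genes called by DESeq2. There 2 members did not overlap, *Fbp2* above and *Pygb* (-0.42 ± 0.13) below, where 7.69% of genes did not. Averaged over genotype 1 member was higher, *Fbp2*, against 0.315% of 15556 genes. The interaction passed for 0 members in edgeR and for 0% of all genes, with 2 members and 664 genes at an unadjusted p of 0.05 and 0 members in DESeq2. A change that missed the test was not shown to be absent.

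Genes of the same pathway outside the 36 were taken from lists. Of 23 other glycogen genes tested, 4 were lower in *Mtm1* KO than in WT and 0 higher. Among the lower ones were *Pgm2*, which GENCODE vM21 names *Pgm1* (-0.99 ± 0.16), and *Pgm2l1* (-0.98 ± 0.16), genes of the phosphoglucomutase family. Another was *Phkb*, the beta subunit of phosphorylase kinase (-1.10 ± 0.20). The adjusted p of these 3 genes ran from 0.00567 to 0.00998 (edgeR). *Phkb* had 310.0, 420 and 310.0 CPM in WT against 157, 122 and 197 in *Mtm1* KO, without overlap. With tamoxifen 5 were lower, among them the same 3 genes and *Ppp1cc*, a catalytic subunit of protein phosphatase 1 (-0.77 ± 0.14), and 1 was higher, *Pgm5*, a relative of phosphoglucomutase at cell junctions (0.85 ± 0.14). The median of the list was -0.14 and -0.40.

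Of 10 other glycolysis genes, *Bpgm*, which makes and breaks down 2,3-bisphosphoglycerate, was lower in both pairs (-1.23 ± 0.15 and -0.99 ± 0.13, adjusted p = 0.00203 and 0.00088, edgeR), and *Eno2*, the neuronal enolase, was higher with tamoxifen in *Mtm1* KO than in WT (1.27 ± 0.27). Of 26 genes of lactate and pyruvate, *Slc16a3*, the lactate exporter MCT4, was lower in both pairs (-0.88 ± 0.15 and -0.61 ± 0.12) and *Emb*, a chaperone of lactate transporters, higher (1.37 ± 0.23 and 1.27 ± 0.25). *Pcx*, pyruvate carboxylase (-1.53 ± 0.20), *Bsg*, another such chaperone (-0.65 ± 0.14), and *Pdpr*, a regulator of pyruvate dehydrogenase phosphatase (-2.04 ± 0.44), were lower in the treated pair alone, which is not a test of a difference between the pairs.

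Of 25 regulators, *Myog*, a transcription factor of muscle differentiation (1.95 ± 0.16), and *Prkaa1*, a catalytic subunit of AMP kinase (0.75 ± 0.14), were higher in *Mtm1* KO than in WT. In the treated pair *Myog* (1.40 ± 0.28) and *Mef2c* (0.60 ± 0.11) were higher. *Tbc1d4* (-1.17 ± 0.17) and *Tbc1d1* (-0.66 ± 0.13), which hold GLUT4 inside the cell, and *Mlxip*, a glucose-sensing transcription factor (-1.13 ± 0.18), were lower there. *Tbc1d1* was the 1 listed gene to pass for tamoxifen averaged over genotype (0.76, adjusted p = 0.00252, edgeR).

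Fiber type markers moved with the same comparisons. *Myh4*, the myosin of 2B fibers, had 28240 to 53020 CPM in WT, 33742 to 42380 in WT + TAM, 13428 to 19779 in *Mtm1* KO and 14165 to 18264 in *Mtm1* KO + TAM. Its log2 fold change was -1.30 ± 0.27 (adjusted p = 0.0184, edgeR) and -1.24 ± 0.16 (adjusted p = 0.000833, edgeR). Over the 11 markers of fast 2B fibers, 2 were lower in the untreated pair, *Actn3* (-1.36 ± 0.22) and *Mybpc2* (-1.51 ± 0.26), 5 in the treated pair (*Myh4*, *Actn3*, *Pvalb*, *Mybpc2* and *Atp2a1*) and 0 higher in either, with list medians of -0.86 and -0.72, and *Pvalb* was at -0.98 ± 0.26 and -1.0 ± 0.18. Their summed CPM was 171255 to 245532 in WT, 181611 to 193443 in WT + TAM, 92990 to 115738 in *Mtm1* KO and 84507 to 118608 in *Mtm1* KO + TAM. These markers are defining genes of the labelled tissue and were abundant in every library.

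Of 10 slow fiber markers, 0 passed in the untreated pair and 2, *Tnni1* (2.81 ± 0.56) and *Atp2a2* (1.05 ± 0.17), were higher in the treated pair. *Myh7* (1.47 ± 1.05 and 1.82 ± 0.75) and *Tnnt1* (1.87 ± 0.86 and 2.52 ± 0.56) did not pass. The summed CPM of the list was 905 to 2358 in WT and 2081 to 3134 in *Mtm1* KO, which overlap, and 1445 to 2366 in WT + TAM and 2834 to 3650 in *Mtm1* KO + TAM, which do not. The developmental myosins *Myh3* (3.89 ± 0.44 and 3.35 ± 0.45) and *Myh8* (2.60 ± 0.18 and 1.83 ± 0.34) were higher in *Mtm1* KO in both pairs. In whole muscle, fewer fibers of a type and less RNA per fiber cannot be told apart from these RNA values. The paper stained myosins in another muscle, tibialis anterior, and saw no fiber type difference between WT and untreated *Mtm1* KO. On tamoxifen it reports more type 2B fibers and fewer of types 1 and 2A in *Mtm1* KO. The part of fiber type in the changes of the 36 members was not tested.

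No marker of fat, red blood cells, immune cells, endothelium, fibroblasts or Schwann cells passed in any of the 6 tests. The summed CPM of the 6 immune markers in the table was 161 to 194 in WT and 255 to 392 in *Mtm1* KO, and 69.2 to 206 in WT + TAM and 232 to 340.2 in *Mtm1* KO + TAM, so it did not overlap between genotypes; its part in the changes was not tested. The summed fat markers ran from 219 to 1205 in WT and 630 to 1307 in *Mtm1* KO, and those of red blood cells from 86.1 to 184 and 72.3 to 255, both with overlap. The summed fibroblast markers ran from 4383 to 5125 in WT and from 2578 to 4090 in WT + TAM, without overlap, in the comparison in which *Fbp2* was higher, and from 3465 to 4782 in *Mtm1* KO and 3560 to 4137 in *Mtm1* KO + TAM, with overlap. Their part in the *Fbp2* values was not tested.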

How the data were processed

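RNA from quadriceps of 16 mice in 4 groups was analysed from 2 deposited tables. The authors aligned reads to GRCm38 with STAR in 2 steps and counted them per gene with HTSeq, and the deposited counts are unscaled whole numbers. The submitters' processing notes list STAR 2.5.0c, bcl2fastq 2.17 and Cufflinks 2.2.1. The deposited RPKM values of the authors follow these counts, scaled by column total and gene length (largest relative deviation 0.000181 over 1061 genes). Annotation, strand setting and counting mode: not given in the sources used here.

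The members, gene lists and tests were chosen with earlier results of these data known. All 36 members are named. From each list the genes that passed were named, at most 5 per comparison, with fixed fiber markers. A listed gene that passed is not reported here by name. The 14 libraries of the study's own comparisons were the main set. Each pair of groups was fitted with edgeR 4.0.16 in R 4.3.3 (TMM, filterByExpr with a minimum count of 10, quasi-likelihood test, Benjamini-Hochberg over all genes tested, adjusted p at most 0.01). The interaction and the average over genotypes used 1 fit of the 4 groups. Normalized CPM used 1 TMM scaling of 16 libraries. The test was checked on simulated data with log2 changes of 2, larger than any genotype change of a member. That check does not show how well smaller changes are found. DESeq2 1.42.0 and limma 3.58.1 on log2(RPKM + 0.1) and log2(RPKM + 1) were among the alternatives. Nothing in the labels says more on replicates than that they are separate samples. The p-values therefore weigh group differences against the spread between these samples. Positions are from GENCODE vM21 (GRCm38). Total counts of 25702605 to 29847222 per library limit what low genes such as *Aldoc* can show.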

Additional observations from a re-analysis of the deposited data

Results flagged for a closer look

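In 144 sets of 4 libraries (36 members in 4 groups), the highest or lowest library stood apart from the other 3 in 4 sets, where chance gives about 1 in 20. In the library labelled WT replicate 1, *Aldoa* (25789 normalized CPM, where the other 3 had 16756 to 18258) and *Pgam2* (6821, against 2839 to 3363) were the highest of the group. That library was not in the main set, and its *Mtm1* count went against its label. In WT + TAM replicate 6, the phosphatase targeting genes *Ppp1r3a* (386, against 183 to 208) and *Ppp1r3c* (522, against 355 to 372) were the highest of the group. No cause was tested.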

How the results depend on the processing

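For *Mtm1* KO against WT, 5 members passed in the main test (531 of all genes), 15 in DESeq2 (1678), 13 with no filter (1096), 14 at an adjusted p of 0.05 (1885), 10 in 1 fit of all 4 groups (987), 2 with all 16 libraries (211) and 0 with limma on log2(RPKM + 0.1) (360). Leaving out 1 library gave 0 to 4. For *Mtm1* KO + TAM against WT + TAM, 11 passed (979 of all genes), with 18 in DESeq2 (1995), 20 at an adjusted p of 0.05 (2476), 6 with limma on log2(RPKM + 0.1) (1116), and 7 with WT + TAM replicates 7 and 8 summed as 1 library (539), an alternative chosen after seeing the data. Leaving out 1 library gave 4 to 10. For *Mtm1* KO + TAM against *Mtm1* KO the count was 0, with 1 in DESeq2 and 0 without any 1 library. For WT + TAM against WT it was 1, with 0 without WT replicate 4 and 1 without any other. It was 1 for tamoxifen averaged over genotype and 0 for the interaction without any 1 library. The isoform ratios passed for genotype in 4 families, or 3 to 5 without 1 library, and for tamoxifen in 0. Over single genes and ratios, 4368 of the alternative values kept their side of the threshold, 79 fell short of it and 64 newly passed. No value past the threshold in either fit changed sign, while some that did not pass did. With library size alone the medians of the members moved to -0.08 and -0.27, while those of all genes moved to 0.33 and 0.27. The causes of these differences were not tested. The study's supplement describes the sequenced samples as coming from littermates. The labels do not say which libraries share a litter, so no paired analysis was made and shared litters were not taken into account.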
